A study of Mus musculus with 4 samples.

Results

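Consecutive steps of glucose breakdown are represented here by 10 mouse genes, taken in pathway order from hexokinase to lactate dehydrogenase: Hk2, Gpi1, Pfkl, Aldoa, Tpi1, Gapdh, Pgk1, Pgam1, Eno1 and Ldha. They were chosen by name as enzymes of the pathway and make up 10 of the 53291 features obtained by summing the deposited transcript rows per gene. The libraries came from female germline stem cells of the C57BL/6 strain, cultured cells with more than 20 passages that derive from the ovary and are studied for germ cell properties. The control group had 2 libraries of cells labelled control, and the SPD group had 2 libraries of cells given spermidine, a polyamine studied as an inducer of autophagy. Both groups were profiled at 4 h by sequencing of mRNA. No genotype, transgene or animal age is given in the labels, and no spermidine dose was found in the labels. Whether the replicates are separate cultures is not stated in the labels. The p-values therefore reflect the spread among these libraries alone, which may be technical.

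Glycolysis splits glucose into pyruvate in the cytosol and yields ATP without oxygen. The upper steps spend ATP to phosphorylate the sugar and cleave it into a pair of triose phosphates, and the lower steps recover ATP and NADH. Lactate dehydrogenase then turns pyruvate into lactate and regenerates NAD+. Proliferating cells in culture usually transcribe these genes at high levels, and hypoxia-inducible factors, which bind the core letters ACGTG or GCGTG, raise many of them when oxygen is low.

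Total counts were 7206176 and 7128901 for the controls, compared with 787600 and 1718944 after spermidine, so the spermidine values are the less precise ones. A single row, AY036118, took 1.68% and 1.64% of control counts against 29.6% and 30.7% of spermidine counts. The SD across tested genes of the log2 ratio between the replicates of a group was 0.804 for control and 1.87 for spermidine. The labelled cell type was checked against its markers. Ddx4, the germ cell helicase, had 1 count in all 4 libraries together, and Dazl had 3. Only 434 bases in the 7 rows of Ddx4 and 432 in the 3 rows of Dazl were covered by a single row. Bases shared between rows were almost uncounted, as described below, so low counts of these genes do not show low expression. Of 10 germline genes in the table, 5 could be tested. Summed over the list, their levels were 280 and 269 CPM (counts scaled to a common library total) in control and 192 and 301 after spermidine. That sum covers members that moved in opposite directions, with a median log2 fold change of 7.58 among the 5 tested. Tex19.1, which silences transposons in germ cells, was called lower, with 271 and 248 CPM in control and 45.7 and 14.5 after spermidine, and Dppa3, Ifitm3, Mael and Pou5f1 were called higher. Over all tested genes, 24.8% were called higher and 3.99% lower. Dppa3, Mael and Pou5f1 passed the low-count filter through the spermidine libraries, so their direction and the median of 7.58 were favoured by the filter.

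How much of each gene could be counted differed widely along the pathway. The deposited counts hold almost no reads that overlap several transcript rows: 49975 rows share every base with another row, and together they took no more than 0.0014% of any library. Gpi1, Pgk1 and Pgam1 each had a single row that shared no base with another row, and Tpi1 had 1573 of its 1601 bases to itself. Hk2 was visible through the first 700 bases of its longer row, and Ldha through the first 307 bases of 1 of its 3 rows. Pfkl shared 2724 of its 3719 bases with an unmatched predicted row, and its longest stretch of its own was the last 950 bases of the transcript. Aldoa had stretches of at most 89 bases in any of its 5 rows. Gapdh had 615 bases of its own, spread over 3 rows, with a longest stretch of 240. Eno1 had 9, because a pair of unmatched predicted rows covers the rest. Low counts of these other 6 genes therefore do not show low expression. Levels are compared between genes below only for those with a single row that is almost wholly their own.

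**Figure D1:**
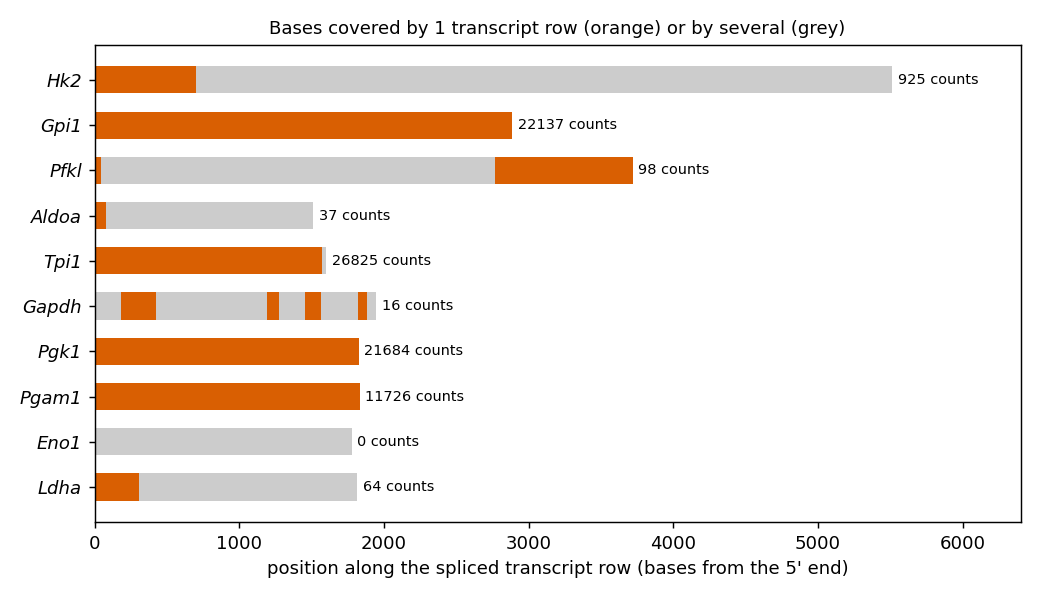
Spliced length of 1 transcript row per gene (the row with most counts) in bases from the 5′ end, with bases covered by that row alone in orange and bases shared with other rows in grey; the number is the row's count over the 4 libraries. Gpi1, Tpi1, Pgk1 and Pgam1 are orange almost throughout and hold 11726 to 26825 counts, while the other rows hold 0 to 925.

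Among the genes that could be followed, the lower-pathway kinase gene Pgk1 fell after spermidine, and Hk2, Gpi1, Tpi1 and Pgam1, the other 4 that reached the filter's level in every library, had values below both controls in both spermidine libraries without passing the test. Together the 10 genes took 0.520% of all counts in control replicate 1 (95% exact Clopper-Pearson interval 0.515 to 0.526) and 0.569% in control replicate 2 (0.564 to 0.575). After spermidine their share was 0.200% in replicate 1 (0.190 to 0.210) and 0.226% in replicate 2 (0.219 to 0.233). With AY036118 left out of the totals the shares were 0.529% and 0.579% against 0.284% and 0.326%. Gpi1, Tpi1, Pgk1 and Pgam1 alone took 0.513% and 0.562% of all counts in control and 0.195% and 0.222% after spermidine. The shares of the 10 genes are thus nearly those of these 4. Intervals cover counting error only. In bulk RNA, fewer cells of a type and less RNA per cell cannot be told apart.

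Of the 10 genes, 8 passed the low-count filter and were tested with edgeR's quasi-likelihood test over 7836 genes. At a Benjamini-Hochberg adjusted p under 0.05, 28.8% of all tested genes were called, and 2 of these 8. Of the 2, 1 was lower after spermidine, against 3.99% of all tested genes, and 1 was higher, against 24.8%. Over all tested genes, 1943 were higher and 313 lower, a split that became 2083 and 10 with the citric acid cycle scaling described further on. At an unadjusted p under 0.05, 3 of the 8 (Hk2, Pgk1 and Pgam1) were lower, against 10.2% of tested genes. Among genes with a single row, 1 of 5 glycolytic genes was lower, against 4.70%. Both spermidine libraries lay below both controls for 7 of the 8, against 29.6% of all tested genes, and above them for 1, against 36.6%. Those shares cover genes of every level. Among the abundant single-row genes defined further on, 256 of 286 autosomal and 7 of 9 X-linked ones had a negative log2 fold change. Only 5 of the 8, Hk2, Gpi1, Tpi1, Pgk1 and Pgam1, reached the filter's level in every library. Pfkl and Ldha passed through the controls and Aldoa through the spermidine libraries, so the directions of those 3 were favoured by the filter and these counts are a description. The median log2 fold change of the 8 was -1.45, and that of all tested genes 0.23.

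**Figure D2:**
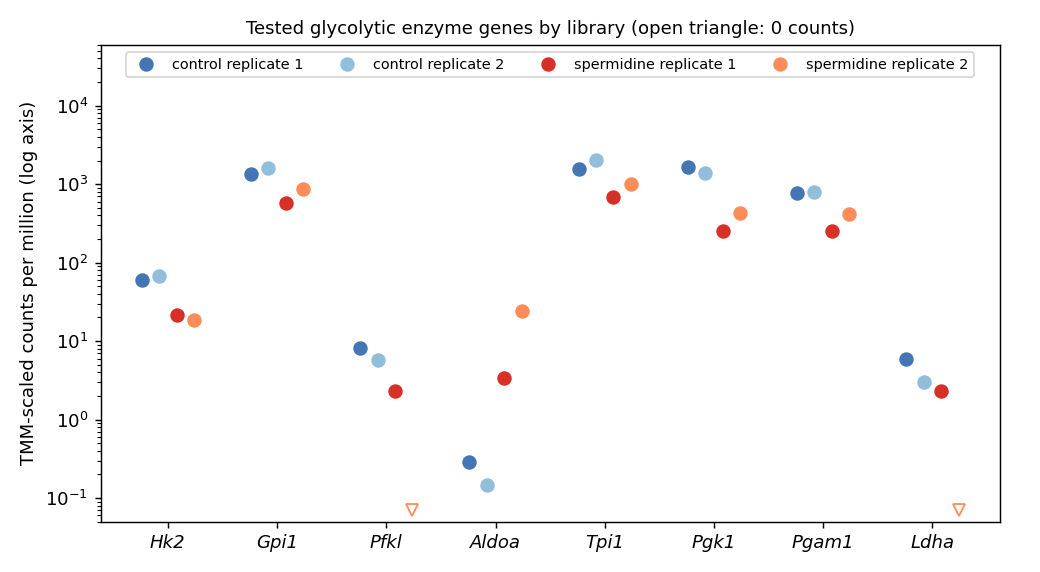
TMM-scaled CPM (log axis) of the 8 tested glycolytic genes in each of the 4 libraries, with open triangles for 0 counts. Blue control points lie above red and orange spermidine points for all genes shown except Aldoa, where the order is the opposite.

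Hk2 encodes the hexokinase that traps glucose in the cell by phosphorylating it and that binds the outer mitochondrial membrane. The controls had 418 and 462 counts of Hk2, and the spermidine libraries had 19 and 26. On the TMM-scaled CPM scale, which divides counts by the effective library size, the levels were 60.6 and 66.8 against 21.7 and 18.5. The groups did not overlap, and the replicates of each group were close. The log2 fold change was -1.67 ± 0.63 (SE), and Hk2 was not called (edgeR, Benjamini-Hochberg adjusted p = 0.0785). These counts come from the 5′ part of the transcript only.

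Gpi1 encodes glucose-6-phosphate isomerase, which turns the aldose into the ketose form. Control libraries gave 9400 and 11020 counts and spermidine libraries 504 and 1213, or 1360 and 1590 against 576 and 863 TMM-scaled CPM. The spermidine libraries were both lower than the controls and differed from each other more than the controls did. The difference of -1.04 ± 0.55 on the log2 scale did not pass the test (edgeR, Benjamini-Hochberg adjusted p = 0.193).

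Tpi1 encodes triosephosphate isomerase, which interconverts the triose phosphates so that the whole sugar continues down the pathway. It had the most counts of the 10 genes, with 10830 and 13991 in the controls and 596 and 1408 after spermidine. Its scaled levels were 1570 and 2020 against 682 and 1000 TMM-scaled CPM. Here too the groups were apart, and spermidine replicate 1 was the lowest library. The log2 fold change was -1.09 ± 0.56, which was not called (edgeR, Benjamini-Hochberg adjusted p = 0.181).

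Pgk1 encodes phosphoglycerate kinase, the enzyme of the first ATP-yielding step. Its single row lies on the plus strand of the X chromosome, chrX:106187100-106203699 (GRCm38), in 11 exons that span 1825 spliced bases. In control replicates 1 and 2 it had 11394 and 9461 counts, and after spermidine 219 and 610. As TMM-scaled CPM the levels were 1650 and 1370 against 250 and 434, with a wide gap between the groups. Pgk1 fell by 2.14 ± 0.57 on the log2 scale, a 4.4-fold decrease (edgeR, Benjamini-Hochberg adjusted p = 0.0223), and was lower in both spermidine libraries than in both controls. The call rests on the set of libraries: with 1 library left out in turn, the log2 value lay between -2.54 and -1.80, and the adjusted p was 0.248 without control replicate 1, 0.193 without control replicate 2, 0.0744 without spermidine replicate 1 and 0.000603 without spermidine replicate 2. That last value became 0.0519 with library totals from before the filter, so no left-out library kept the call under both totals.

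Pgam1 encodes phosphoglycerate mutase, which moves the phosphate group before the enolase step. Its counts in control libraries were 5354 and 5564, compared with 220 and 588 after spermidine, and scaled levels were 776 and 805 against 252 and 419 TMM-scaled CPM. The controls nearly coincided, and both spermidine libraries were lower. With a log2 fold change of -1.23 ± 0.53, Pgam1 was not called (edgeR, Benjamini-Hochberg adjusted p = 0.121). It was called with library totals in place of TMM factors (-1.19, adjusted p = 0.0423) and, together with Gpi1 and Tpi1, without spermidine replicate 2 (Pgam1 -1.59, adjusted p = 0.00959; Gpi1 -1.29, 0.0235; Tpi1 -1.33, 0.021). With library totals from before the filter, the last 3 calls were lost (adjusted p = 0.0541, 0.0573 and 0.0664 by edgeR).

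The start regions of these 4 fully countable genes are shown because all 4 had both spermidine libraries below both controls, and Pgk1 alone was called. Each runs from 250 bases before to 50 bases after an annotated start, from RefSeq on GRCm38.p6, 5′ to 3′ on the gene's strand. Capitals mark the hypoxia-factor core ACGTG, its variant form GCGTG and the GC box with letters GGGCGG, searched on both strands (their reverse complements are in capitals too), and neighbouring matches may run together.
Gpi1, chr7:34230287-34230586 (- strand): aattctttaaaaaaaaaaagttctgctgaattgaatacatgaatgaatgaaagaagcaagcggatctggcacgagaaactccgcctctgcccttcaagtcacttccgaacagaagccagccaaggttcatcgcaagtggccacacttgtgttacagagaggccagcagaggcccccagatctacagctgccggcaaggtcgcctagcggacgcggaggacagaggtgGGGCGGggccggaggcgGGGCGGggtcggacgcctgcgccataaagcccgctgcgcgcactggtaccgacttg
Tpi1, chr6:124814109-124814408 (- strand): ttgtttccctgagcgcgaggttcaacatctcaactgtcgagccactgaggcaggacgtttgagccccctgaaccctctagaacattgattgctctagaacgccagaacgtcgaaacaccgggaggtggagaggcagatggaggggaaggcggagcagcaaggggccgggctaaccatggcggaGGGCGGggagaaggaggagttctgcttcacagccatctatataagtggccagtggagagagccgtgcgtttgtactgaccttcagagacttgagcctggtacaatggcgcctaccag
Pgk1, chrX:106186850-106187149 (+ strand): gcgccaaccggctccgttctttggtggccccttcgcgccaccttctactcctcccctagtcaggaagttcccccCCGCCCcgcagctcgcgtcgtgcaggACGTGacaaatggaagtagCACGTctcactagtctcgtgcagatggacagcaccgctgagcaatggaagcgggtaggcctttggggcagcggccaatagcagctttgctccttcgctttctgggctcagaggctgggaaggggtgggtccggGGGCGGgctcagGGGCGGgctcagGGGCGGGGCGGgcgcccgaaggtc
Pgam1, chr19:41911621-41911920 (+ strand): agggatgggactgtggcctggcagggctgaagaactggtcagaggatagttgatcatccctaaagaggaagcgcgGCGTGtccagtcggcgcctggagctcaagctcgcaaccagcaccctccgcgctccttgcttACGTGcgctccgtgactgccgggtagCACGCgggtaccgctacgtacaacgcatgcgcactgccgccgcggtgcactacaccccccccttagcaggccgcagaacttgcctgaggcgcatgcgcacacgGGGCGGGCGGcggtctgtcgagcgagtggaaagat
For Tpi1 the annotated start lies 138 bases downstream of the start of the deposited row. Its window therefore reaches less far upstream of the counted row than those of the other 3 genes, where the starts coincide. Pgk1 held ACGTG 2 times and GCGTG 0 times, Pgam1 held them 1 and 2 times, and Gpi1 and Tpi1 held neither in this window. Of 32851 mouse start regions of this length, 43.8% held at least 1 of these letter strings. GGGCGG was found 5 times for Pgk1, 2 times each for Gpi1 and Pgam1 and 1 time for Tpi1, and 35.7% of all start regions held it. Matches are a description of these windows and not evidence of binding.

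Ratios of counts within a library need no scaling between libraries, and those with Pgk1 had the larger shifts among the 4 fully countable genes. The ratio of Gpi1 to Tpi1 was 0.868 and 0.788 in control and 0.846 and 0.862 after spermidine, so the groups overlapped. Tpi1 over Pgam1 was 2.02 and 2.51 against 2.71 and 2.39 and also overlapped. Gpi1 over Pgam1 was 1.76 and 1.98 against 2.29 and 2.06, a shift of 1.17-fold between the group means of the log ratio, and these groups did not overlap.

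Gpi1 over Pgk1 was 0.825 and 1.16 in the controls and 2.30 and 1.99 after spermidine, a shift of 2.18-fold with no overlap. Tpi1 over Pgk1 moved from 0.951 and 1.48 to 2.72 and 2.31, or 2.11-fold. Pgk1 over Pgam1 moved from 2.13 and 1.70 to 0.995 and 1.04, or 1.87-fold. In the controls Pgk1 thus had 1.70 to 2.13 times the counts of Pgam1, and in the spermidine libraries about the same number. Eno1b, an enolase gene described further on, also separated the groups in ratios without Pgk1: Gpi1 over Eno1b shifted 1.49-fold, Tpi1 over Eno1b 1.44-fold and Pgam1 over Eno1b 1.28-fold, next to 1.46-fold for Pgk1 over Eno1b. In all, 4 of the 6 ratios without Pgk1 had groups that did not overlap. All of these except Gpi1 over Pgam1 hold Eno1b, whose counts are uncertain, so they are not separate observations. No share over other gene pairs is given beside that number, which is a description. With 2 libraries against 2, an exact two-sided permutation test cannot reach p under 0.05, so no p is given for a ratio.

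**Figure D3:**
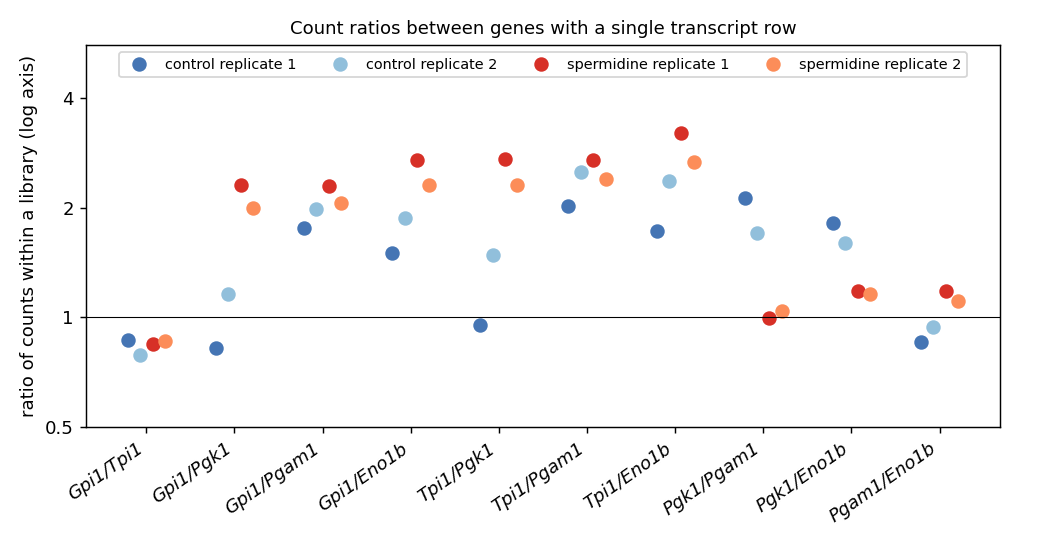
Ratio of counts between pairs of genes within each library (log axis), for the 4 glycolytic genes with a single, almost unshared transcript row and for Eno1b. Blue control points and red and orange spermidine points are apart for the 4 ratios with Pgk1 and for 4 of the 6 without it, with shifts of 2.18-fold for Gpi1 over Pgk1 and 1.49-fold for Gpi1 over Eno1b, and Gpi1 over Tpi1 lies between 0.788 and 0.868 in all 4 libraries.

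Per kilobase of own sequence, the order of the 4 genes changed with the group. The controls had Tpi1 at 998 and 1290 TMM-scaled CPM per kb, Pgk1 at 905 and 750, Gpi1 at 472 and 552, and Pgam1 at 424 and 439. Tpi1 was thus the highest and Pgk1 the next, and Gpi1 and Pgam1 were lowest and close together. In the spermidine libraries Tpi1 was at 433 and 637 TMM-scaled CPM per kb and Gpi1 at 200 and 299. Pgk1 at 137 and 238 and Pgam1 at 137 and 228 could not be told apart there. Among 5471 tested genes with a single row, Pgk1 ranked 122nd and 139th by level per kb in the controls and 311th and 370th in the spermidine libraries, whereas Tpi1 ranked 111th and 85th against 89th and 133rd.

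Fold changes of the whole table depended on level. A threshold of 500 TMM-scaled CPM in the mean of all 4 libraries, chosen after the data were seen, kept 302 single-row genes with a median log2 fold change of -1.09, against 0.18 for all single-row genes, and 18.9% of the 302 were called lower. Gpi1, Tpi1 and Pgam1 lie in the middle of that group: 53.3%, 50.3% and 43.4% of it had a lower fold change than each of them. For Pgk1 the share was 7.62%. Gpi1, Tpi1 and Pgam1 thus lay near the median of abundant transcripts, and Pgk1 was among the lower ones. Scaling by genes of the citric acid cycle and the pyruvate dehydrogenase complex was an alternative also added after the data were seen. It moved the median of all tested genes to 1.47. The log2 values became 0.27 ± 0.36 for Gpi1, 0.21 ± 0.38 for Tpi1 and 0.05 ± 0.34 for Pgam1. None of these was called (edgeR, Benjamini-Hochberg adjusted p = 0.626, 0.725 and 0.933), so no change relative to the scaling genes was resolved. Pgk1 kept a negative value there (-0.85 ± 0.31, edgeR, Benjamini-Hochberg adjusted p = 0.105).

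**Figure D4:**
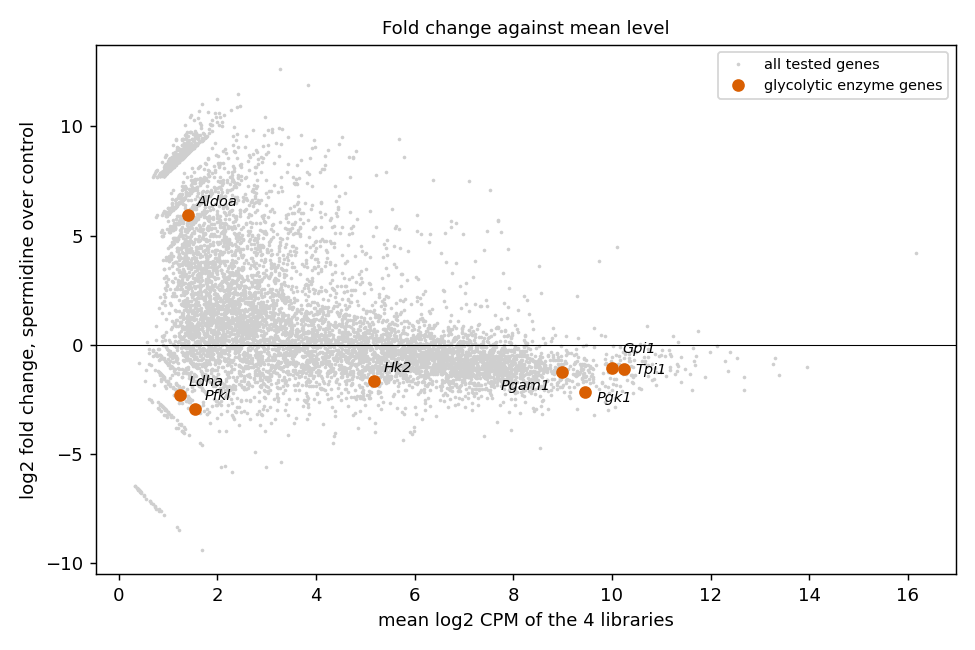
Log2 fold change of spermidine over control against the mean log2 CPM of the 4 libraries for all 7836 tested genes (grey) and the 8 tested glycolytic genes (orange). The cloud bends below 0 at high levels, where Gpi1, Tpi1 and Pgam1 lie at -1.04 to -1.23 inside it and Pgk1 at -2.14 near its lower edge.

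Pgk1 is the only one of the 10 genes on the X chromosome, and Xist, the noncoding RNA made from an inactive X chromosome, had 5 and 2 counts in control libraries and 114 and 588 after spermidine. Among the abundant single-row genes just described, 9 were X-linked, with a median log2 fold change of -0.46, against -1.11 for 286 autosomal ones. Of the 9, 2 were lower and 1 was higher, and Pgk1 had the lowest value. The part of Xist in the value of Pgk1 was not tested.

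The genes seen through short stretches gave few counts. Pfkl, the liver-type phosphofructokinase that commits sugar to the pathway, had 56 and 40 counts in control libraries and 2 and 0 after spermidine. The pooled control level was 7.92 times the spermidine level (95% counting interval 2.13 to 66.3), and the gene was not called (edgeR, Benjamini-Hochberg adjusted p = 0.158). Ldha, the lactate dehydrogenase subunit that favours lactate formation, had 41 and 21 counts against 2 and 0, which makes the pooled control level 5.12 times the other (1.36 to 43.2, adjusted p = 0.269 by the same test). Both genes had 0 counts in spermidine replicate 2, where 3 counts, the limit that a count of 0 allows, would be 1.75 CPM. Without that library the log2 value moved from -2.92 to -1.54 for Pfkl and from -2.30 to -0.92 for Ldha. Without spermidine replicate 1 the remaining spermidine library is at 0 for both genes, and the fitted values of -8.14 and -7.52 are no bound.

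Aldoa encodes the aldolase that cleaves fructose bisphosphate and was the 1 gene called higher. Control libraries had 2 and 1 counts and spermidine libraries 3 and 34, so the pooled spermidine level was 74.7 times the control level (95% counting interval 23.7 to 379; edgeR, Benjamini-Hochberg adjusted p = 0.00723). The 34 counts of spermidine replicate 2 fell on the first 76 bases of 1 row, and the 3 of replicate 1 on the first 74 bases of another, so the spermidine libraries did not share a counted stretch. Without spermidine replicate 2 the log2 value of Aldoa dropped from 5.93 to 3.89 (adjusted p = 0.036, or 0.0564 with library totals from before the filter). Aldoa was called in 13 of 18 alternatives, and not without control replicate 1 (0.0836) or with no filter (0.283). Most of the aldolase mRNA, 1301 bases shared by 6 rows, was not countable, and these values describe start-region variants and not the gene's total.

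Gapdh, the dehydrogenase that yields NADH and is widely used as a reference gene, was not tested. Control libraries had 3 and 5 counts and spermidine libraries 9 and 0. Eno1, the enolase that forms phosphoenolpyruvate, had 0 counts in all 4 libraries. Reads of enolase are found under another name: Eno1b, an intronless copy outside the 10 genes that was looked up after its values were seen, had 6264 and 5898 counts in control libraries and 186 and 528 after spermidine. The GENCODE transcripts of Eno1 and Eno1b differ at 9 of 1736 aligned bases (99.5% identity), so counts at Eno1b may hold reads of either gene and are uncertain. Eno1b was not called (log2 fold change -1.58 ± 0.55, edgeR, Benjamini-Hochberg adjusted p = 0.0616), and the ratio of Pgk1 to Eno1b was 1.82 and 1.60 in control and 1.18 and 1.16 after spermidine, without overlap. Aldoart1, an Aldoa retrogene, had 9 and 4 counts in control and 0 and 2 after spermidine, and Aldoart2 had 1 and 2 against 11 and 10. Ldhal6b, a relative of Ldha, had 18 and 4 against 5 and 24.

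Other isozymes of the same steps and pyruvate kinase had 2 of 8 tested genes called higher, near the share of 24.8% over all tested genes, none lower and a median log2 fold change of 0.82. Ldhd, a mitochondrial dehydrogenase of D-lactate, rose with 4 and 8 control counts against 7 and 31 (4.15 ± 0.97, edgeR, Benjamini-Hochberg adjusted p = 0.012). It passed the low-count filter through the spermidine libraries, and its counts are small next to those of Gpi1 or Pgk1.

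Hk1, the widely expressed hexokinase, had 187 and 375 control counts against 8 and 7, a log2 fold change of -2.59 ± 0.86 that was not called (edgeR, Benjamini-Hochberg adjusted p = 0.0511). Pkm, the pyruvate kinase of most tissues, had 51 and 30 control counts and 0 in both spermidine libraries, at least 4.46-fold lower with 3 counts set for the spermidine group, and was not called either (adjusted p = 0.065). Pfkp, the platelet-type phosphofructokinase, had 24 and 13 against 0 and 0 and was not tested. Only 217 bases in the 5 rows of Pkm and 29 in the 6 rows of Pfkp were covered by a single row. Their counts therefore do not show the level of the whole gene. Pkm passed the filter through the controls, which favours the lower direction. The muscle enzymes Pgam2 and Eno3, the neuronal enolase Eno2 and the bisphosphoglycerate mutase Bpgm had log2 fold changes of 0.50, 0.57, 1.22 and 1.08 and were not called. Gapdhs, the sperm form, had 6 and 10 against 5 and 0 counts and was not tested.

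Of 10 genes for sugar and lactate transport, all 4 tested had both spermidine libraries below both controls, against 29.6% of all tested genes, with a median log2 fold change of -2.09, and 1 was called lower, against 3.99%. Both shares cover genes of every level, and most abundant single-row genes had a negative log2 fold change. Slc16a1, which encodes the lactate and pyruvate carrier MCT1, had 5543 and 6530 counts in control libraries and 190 and 345 after spermidine, and fell by 1.92 ± 0.52 (edgeR, Benjamini-Hochberg adjusted p = 0.0237). Slc2a1 and Slc2a3, the glucose carriers GLUT1 and GLUT3, had log2 values of -2.11 and -2.77 from 68 and 145 counts against 4 and 4, and from 115 and 90 against 0 and 5, and were not called. Only 337 bases in the 2 rows of Slc2a1 and 612 in the 4 rows of Slc2a3 were covered by a single row. Slc2a3 and Slc16a3, also tested on this list, reached the filter's level in both controls and in 1 spermidine library. That favours the lower direction for both.

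Of 8 tested regulators of glycolysis, 1 was called higher and none lower, against 24.8% and 3.99% of all tested genes. This was Epas1, a hypoxia-inducible factor subunit best known from endothelium, which rose by 6.60 ± 0.81 from 13 and 15 counts to 93 and 408 (edgeR, Benjamini-Hochberg adjusted p = 0.00313). The genes of the proteins that mark these factors for destruction, Egln1, Egln2, Egln3 and Vhl, had log2 fold changes of -0.45, -0.94, -1.35 and -0.41. None of 7 tested hypoxia-responsive genes outside glycolysis was called, against 28.8% of all tested genes, and their median was 0.16. With 1 library left out the median was -0.56 without control replicate 1, 1.41 without control replicate 2, -1.12 without spermidine replicate 1 and 0.06 without spermidine replicate 2, and 1 gene was called without control replicate 2 and 2 without spermidine replicate 2. The 2 with most counts were Ndrg1, a stress-response gene, at -1.52 ± 0.55, and Ddit4, an inhibitor of mTOR signalling, at 0.16 ± 0.77. The controls of Ddit4 were far apart, at 67.7 and 416 TMM-scaled CPM, with the spermidine libraries between them at 240 and 298.

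Of 10 tested genes of pyruvate dehydrogenase, its kinases and pyruvate import, Pdk4, a kinase that shuts the complex off, was higher, with 1 and 2 counts in control and 34 and 51 after spermidine, which is 172 times as much after pooling (95% counting interval 56.8 to 849; edgeR, Benjamini-Hochberg adjusted p = 0.00286), and the list median was -0.73. Among 4 tested gluconeogenesis genes, Pck1, the enzyme that forms phosphoenolpyruvate from oxaloacetate, rose by 4.67 ± 0.96 with counts of 4 and 6 against 23 and 19 (adjusted p = 0.00765 by the same test). Fbp2, the muscle fructose bisphosphatase, fell by 2.82 ± 0.78 from 1604 and 1732 counts to 55 and 14 (adjusted p = 0.0256). Over all tested genes, 24.8% were called higher and 3.99% lower. Epas1, Pdk4 and Pck1, like Ldhd, passed the filter through the spermidine libraries, which favours the higher direction.

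All 7 tested pentose phosphate genes had both spermidine libraries below both controls, against 29.6% of all tested genes, and none was called. Their median was -1.61, and the 2 with most counts, the transketolase and transaldolase genes Tkt and Taldo1, were at -1.61 ± 0.58 and -1.01 ± 0.53. The share of 29.6% covers genes of every level, and most abundant single-row genes had a negative log2 fold change. Pgls and Rpe passed the filter through the controls, and H6pd reached its level in both controls and in 1 spermidine library. That favours the lower direction for these genes. In the citric acid cycle 1 of 9 tested genes was lower, against 3.99% of all tested genes, and the median was -1.08. Sdhd, a membrane anchor of succinate dehydrogenase, fell by 1.92 ± 0.56 (edgeR, Benjamini-Hochberg adjusted p = 0.0331). In the glycogen and hexose side branches 2 of 15 were higher, a smaller share than the 24.8% of all tested genes, and 1 was lower, against 3.99%, with a median of 0.39. The muscle glycogen phosphorylase gene Pygm rose by 3.58 and Gfpt2, which starts hexosamine synthesis, by 3.76, whereas Pgm1, which links glycogen to glycolysis, fell by 1.94. Gfpt2 reached the filter's level in both spermidine libraries and in 1 control, which favours the higher direction. Of the 72 genes tested on these 9 lists, 11 were called with 4 libraries, a smaller share than the 28.8% of all tested genes. The number was 37 without spermidine replicate 2, 4 without control replicate 2, 3 without spermidine replicate 1 and none without control replicate 1.

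**Figure D5:**
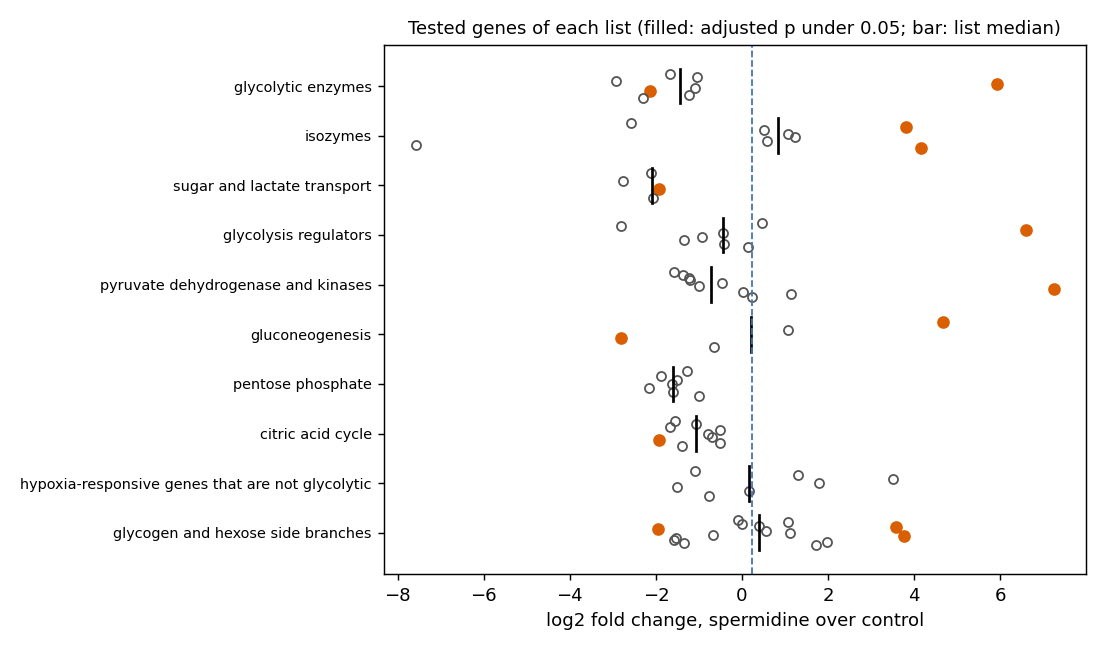
Log2 fold change of spermidine over control for each tested gene of the 10 lists, with called genes filled, list medians as black bars and the median of all tested genes (0.23) as a dashed line. The glycolytic, transport, pentose phosphate and citric acid cycle lists have medians of -1.45, -2.09, -1.61 and -1.08, and the isozyme list has 0.82.

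Markers of other cell types moved between the same groups. Leukocyte, mast cell and megakaryocyte genes numbered 9, of which 6 were tested, 4 fell and Spi1 had 0 counts, and summed to 2270 and 1730 CPM in control and 375 and 134 after spermidine. Granulosa and theca genes numbered 11, of which 7 were tested and 6 rose, and summed to 155 and 129 CPM against 2500 and 5520, with Amh and Hsd3b1 at 0. The 9 oocyte genes, with 4 of 4 tested higher and Zp2, Nobox and Nlrp5 at 0, summed to 1.39 and 2.38 against 169 and 1720 CPM. The genes named as having 0 counts had at most 407 bases of their own (Spi1). Nobox had 254, Hsd3b1 147, Zp2 42, Nlrp5 21 and Amh 0. Counts of 0 for these genes therefore do not show absent expression. The 5 fibroblast genes, with 3 higher, summed to 42.7 and 85.0 against 1560 and 5910 CPM, and 4 epithelial genes, all higher, to 0.278 and 0.561 against 107 and 193 CPM. All 4 tested oocyte genes, all 4 epithelial genes and Wt1, Foxl2, Inha, Fshr and Lum passed the filter through the spermidine libraries. That favours the higher direction, and over all tested genes 24.8% were called higher and 3.99% lower. The part of these cell types, of depth and of the AY036118 share in the values of the glycolytic genes was not tested.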

How the data were processed

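Per the file headers, the deposited table gives counts per transcript, exon coordinates and lengths, and its whole numbers carry no scaling; it has 106519 rows. HISAT2, DESeq2 and mm9 are named without roles or versions, per the submitters' processing notes. Names of a read counter were not given in the sources used here. Of these rows, 86027 (80.8%) matched a symbol in RefSeq's GRCm38 gene table by accession, and 88.6% of those lay inside the gene's GRCm38 span, so positions are given as GRCm38.

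Rows were summed per gene. The filter was filterByExpr with a minimum of 10 counts and of 15 in total. TMM factors were used with edgeR 4.0.16 in R 4.3.3 (estimateDisp, then glmQLFit and glmQLFTest with legacy set to FALSE), with group as sole term and Benjamini-Hochberg adjustment over all 7836 genes. The SE is the absolute log2 fold change divided by the square root of F. Log2 CPM used a prior count of 2. Counting intervals are exact binomial intervals at 95% on group sums scaled by effective library size. A count of 0 is limited at 3 counts. The procedure was tested on simulated data. Between replicates, chi-square per degree of freedom over genes was 40.8 for control and 32.2 for spermidine, so no pair is a duplicate.

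The genes, lists, tests and alternatives were chosen with earlier results of these data known. Named were the 10 genes, isozymes with at least 20 counts, called genes of the other lists, and the 2 with most counts in lists without a call; 1 named gene is not reported here. Egln1, Egln2, Egln3, Vhl, Slc2a1, Slc2a3, Slc16a3, H6pd, Pgls, Rpe, Eno1b and Xist are outside that rule, picked with their values in view. Other settings varied scaling, filter, tool (DESeq2 1.42.0, limma-voom 3.58.1), replicate block, features, depth and each library left out.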

Additional observations from a re-analysis of the deposited data

How the results depend on the processing

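The count of called genes, 2256, was 0 by edgeR without any filter (4255 had a p under 0.05 before adjustment), 275 where every library had to reach 1 CPM, 830 at an equal depth of 554572 counts that left AY036118 out and 1282 at an adjusted p under 0.01. Leaving out 1 library gave 0 to 3725 (0 without control replicate 1, with 1926 at an unadjusted p under 0.05). The lone library of a group was then assumed to vary like the other group. With library totals from before the filter, an alternative added after seeing the data, the 484 without spermidine replicate 1 became 483, the 3725 without spermidine replicate 2 became 504 and the 1513 without control replicate 2 became 0, so these refits turn on a small choice. Of the glycolytic genes, 2 were called, Pgk1 and Aldoa. That number was 0 with no filter and with 1 CPM asked of all libraries. It was 1 with the replicate block, at equal depth, at an adjusted p under 0.01, with the deposited transcript rows, and, added after seeing the data, with single-row genes alone and with citric acid cycle and pyruvate dehydrogenase genes as scaling genes. It was 0 to 5 with a library left out. Under the last scaling Gpi1, Tpi1 and Pgam1 changed sign to 0.27, 0.21 and 0.05, each smaller than its SE and not called. No other log2 value of the 8 genes changed sign under an alternative. Pgk1 was negative in all 22 alternatives, from -2.59 to -0.85, and called in 11, with adjusted p from 0.000603 to 0.300. Among the losses were the replicate block (0.0798), 1 CPM in all libraries (0.0654) and no filter (0.300). The labels do not say that replicate numbers pair the libraries, and deviations of same-numbered libraries correlated at -0.0299. With the block 1775 genes were called. Genes called on the pathway lists numbered 11, 17 with upper-quartile factors and 0 to 37 with a library left out. Aldoa, Pfkl and Ldha could not be tested at equal depth.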
